A study of Mus musculus with 6 samples.

Results

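The hemidesmosome and laminin-332 genes of the mouse were followed in healing skin through 9 genes, Itga6, Itgb4, Itga3, Lama3, Lamb3, Col17a1, Plec, Dst and Cd151. Members were the probes that carry these symbols in the platform annotation and had a detection p-value under 0.01 on at least 2 of the 6 arrays. Of 39 probes with such a symbol 17 met the rule, out of 17410 probes that met it on the whole array of 45281 probes. They read 8 of the 10266 genes detected by the same rule. The 8 genes had 3 probes each for Col17a1 and Cd151, 4 for Dst, 2 each for Itgb4 and Plec, and 1 each for Itga6, Itga3 and Lamb3. Lama3 was not analysed here. All 17 were detected on 6 arrays except 1 Dst probe, detected on 5, so none entered through a single group.

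RNA came from full thickness wounds of the dorsal skin of C57/BL6 mice, taken 8 days after injury and read on 6 single-colour Illumina bead arrays. Knockdown wounds (2 arrays) were from mice of 5 months with loxP sites around exons 2 to 6 of the β-catenin gene and a Cre-Esr1 transgene, given tamoxifen. Tamoxifen control wounds (2 arrays) were from mice of 4 months with the same floxed alleles and no Cre in the labels, also given tamoxifen. The stabilized wound (1 array) was from a mouse of 2 months with loxP sites around exon 3 treated with an adenovirus carrying Cre, which leaves a β-catenin that escapes breakdown. The GFP control wound (1 array) had the same floxed allele and age and received an adenovirus carrying green fluorescent protein. All 4 groups thus carried floxed alleles, and age went with genotype in the tamoxifen groups. The promoter that drives Cre-Esr1, the cells that the adenovirus reached and whether wounds were pooled are not given in the sources used here. The labels call the samples biological replicates without naming animals, so p-values measure the spread between these samples.

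Hemidesmosomes fasten basal keratinocytes to the basement membrane. The integrin α6β4, encoded by Itga6 and Itgb4, spans the plasma membrane and binds laminin-332 outside the cell, while plectin (Plec) and the epithelial form of dystonin (Dst) link it to keratin filaments inside. Collagen XVII (Col17a1) spans the membrane beside the integrin, and the tetraspanin Cd151 associates with the laminin-binding integrins α3β1 and α6β4. Keratinocytes at a wound edge loosen these junctions, deposit laminin-332 on the wound bed and migrate over it through α3β1 and α6β4. Several members are also made outside the epidermis, among them Itga6 in endothelium, Itgb4 in Schwann cells and Plec in muscle.

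Values below are normalized log2 intensities, and a difference is knockdown minus tamoxifen control or stabilized minus GFP control. Levels of different probes were not compared with each other. Between 15883 and 16681 probes were detected on an array. The GFP array was lowest in this count, and its mean intensity was 544.4, where the other 5 had 648.7 to 714.8. Skin identity was borne out by Krt14 and Krt5, the keratins of basal keratinocytes, which read at least 15.80 and 12.93 on every array. Ctnnb1, the targeted gene, was read by 4 detected probes that differed by -0.24 to 0.18 between knockdown and tamoxifen control wounds and by -0.82 to -0.03 between stabilized and GFP control wounds. Where these probes lie relative to the deleted exons was not analysed here, so they check neither label.

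In the knockdown wounds the laminin-binding integrin chains and the β3 chain of laminin-332 were lower than in the tamoxifen controls, while plectin, dystonin and Cd151 differed little. Itga6 was 1.73-fold lower, Itgb4 1.62-fold, Itga3 1.87-fold and Lamb3 1.89-fold, each read by its brightest probe, and on these 4 genes both knockdown arrays lay below both controls. None of these differences passed the test over all probes. Among the 17 probes 0 passed (limma, smallest adjusted p = 0.18), as did 0 of 17410 probes on the array (percent_called 0, smallest adjusted p = 0.177). An unadjusted p under 0.05 was reached by 6 member probes, all lower, of Itga6, Itgb4 (both probes), Itga3, Lamb3 and 1 probe of Col17a1, against 4.88% of all probes lower and 5.77% higher. Probes of 1 gene share their target, so the count over genes represented by their brightest probe was 4 of 8. Counting by sign alone, 11 of the 17 were below 0, against 49.4% of all probes. With arrays scaled to a common median in place of quantiles, 9 were below and 8 above 0, the member median was -0.11 and the median of all probes 0.07.

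**Figure D1:**
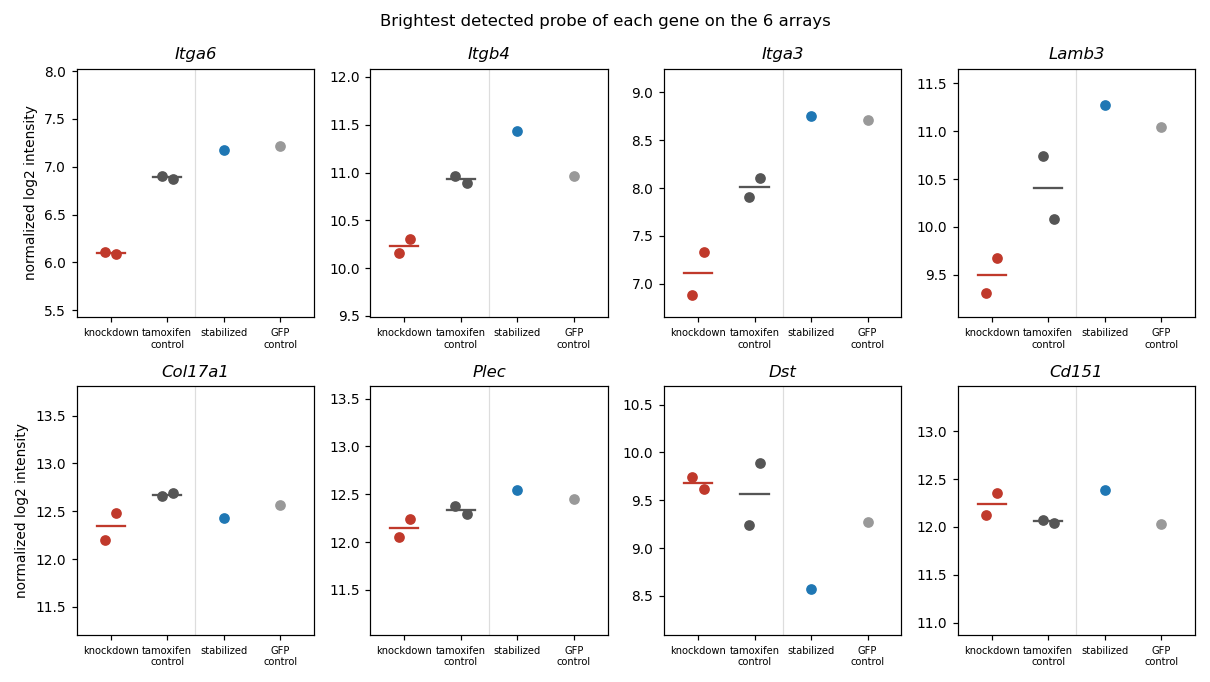
Normalized log2 intensity of the brightest detected probe of each gene. Points are single arrays and short lines are means of 2 arrays; every panel spans the same number of log2 units. The knockdown arrays lie below both controls for Itga6, Itgb4, Itga3, Lamb3, Col17a1 and Plec, and the stabilized array lies lowest for Dst.

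Itga6, the α chain that pairs with β4 in the hemidesmosome, read 6.11 and 6.09 in the knockdown wounds, against 6.90 and 6.87 in the tamoxifen control wounds. After normalization the 2 arrays of each group nearly coincided (SD 0.01 in the knockdown and 0.02 in the controls). An SD from 2 arrays is itself uncertain, and the limma SE, which draws on all probes, was larger. The difference was -0.79 ± 0.14 (SE, n = 2 each; limma, adjusted p = 0.18), with a 95% interval from -1.14 to -0.45. This was a dim probe, at 179 and 172 intensity units in the knockdown and 233 and 215 in the controls, so its difference depended on the background step and was -0.36 with no background correction. The other 2 Itga6 probes were not detected on any array.

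Itgb4, the chain whose long cytoplasmic tail anchors plectin, was read by 2 probes with nearly the same profile (r = 0.98 over 6 arrays). Its brighter probe read 10.16 and 10.31 in the knockdown wounds, against 10.97 and 10.89 in the tamoxifen controls, a difference of -0.69 ± 0.14 (SE; limma, adjusted p = 0.212). The dimmer probe read 8.95 and 9.21, against 9.81 and 9.75, a difference of -0.70 ± 0.16 (adjusted p = 0.235). Both probes separated the groups without overlap.

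Itga3, which with β1 forms a laminin-332 receptor outside hemidesmosomes, read 6.89 and 7.33 in the knockdown wounds, against 7.91 and 8.11 in the tamoxifen controls. The groups did not overlap, though the knockdown arrays were 0.44 apart. The difference was -0.90 ± 0.20 (SE; limma, adjusted p = 0.232), and it was -0.57 with no background correction. Itgb1, the partner chain of Itga3 and a gene outside the set, was at -0.21 ± 0.20 with overlapping groups.

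Lamb3, the β3 chain that is specific to laminin-332, had the largest mean difference of the 8 genes and the widest spread among the controls. It read 9.31 and 9.68 in the knockdown wounds, against 10.74 and 10.09 in the tamoxifen controls. The difference was -0.92 ± 0.27 (SE; limma, adjusted p = 0.338), with a 95% interval from -1.60 to -0.24. It was -1.24 without tamoxifen control replicate 2 and -0.59 without tamoxifen control replicate 1.

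Itga3 and Lamb3 had nearly parallel profiles (r = 0.94 over the 6 arrays), as did their pairs with Itga6 and Itgb4 (r = 0.93 to 0.96). No promoter window was given for Itga6 or Itgb4, so those of Itga3 and Lamb3 are shown. Each line gives the 250 bases before the outermost transcript start in the RefSeq promoter table of build GRCm38.p6, 5′ to 3′, with matches to the searched motifs in capitals. The Itga3 window is chr11:95076715-95076964 on the minus strand, and the Lamb3 window is chr1:193301744-193301993 on the plus strand.
Itga3: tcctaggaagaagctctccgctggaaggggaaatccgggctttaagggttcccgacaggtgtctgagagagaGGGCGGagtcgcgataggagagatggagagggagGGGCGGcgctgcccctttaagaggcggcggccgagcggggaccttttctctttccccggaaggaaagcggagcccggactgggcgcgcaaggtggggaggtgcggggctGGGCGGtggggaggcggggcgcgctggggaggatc
Lamb3: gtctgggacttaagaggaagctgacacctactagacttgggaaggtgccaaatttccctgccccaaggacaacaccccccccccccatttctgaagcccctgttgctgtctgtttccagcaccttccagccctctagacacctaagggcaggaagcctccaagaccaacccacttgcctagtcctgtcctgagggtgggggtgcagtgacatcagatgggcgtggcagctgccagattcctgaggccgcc
Searched on both strands were the AP-1 motif TGANTCA, the TCF/LEF motif (CTTTG followed by AA, AT, TT or TA), through which β-catenin acts on DNA, and the GC box GGGCGG. The Itga3 window held 3 GC boxes, 178, 144 and 35 bases before the start, and no other match, and the Lamb3 window held none of the 3 motifs. Among all 32851 windows of this length 6.75% held the AP-1 motif, 14.8% the TCF/LEF motif and 32.7% the GC box. A match is a description of letters in this window, not a binding site.

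Col17a1, the collagen XVII chain, differed less. Its brightest probe read 12.20 and 12.49 in the knockdown wounds, against 12.66 and 12.69 in the tamoxifen controls, a difference of -0.33 ± 0.16 (SE; limma, adjusted p = 0.559). Without knockdown replicate 1 it was -0.19. The other 2 probes gave -0.36 ± 0.18 (adjusted p = 0.565) and -0.49 ± 0.14 (adjusted p = 0.336). On all 3 probes both knockdown arrays were below both controls.

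The cytoplasmic linkers and Cd151 showed differences near 0 with intervals that include it. The brightest Plec probe read 12.05 and 12.24 in the knockdown wounds, against 12.38 and 12.30 in the tamoxifen controls, a difference of -0.19 with a 95% interval from -0.57 to 0.19. The second Plec probe was at -0.05 (-0.44 to 0.35), with overlapping groups. The brightest Cd151 probe read 12.12 and 12.35, against 12.07 and 12.04, a difference of 0.18 with an interval from -0.21 to 0.57. The other 2 Cd151 probes were at 0.08 and 0.05. On the 2 brighter Cd151 probes both knockdown arrays lay above both controls, by narrow margins. Whether Plec or Cd151 differed from the integrins in response was not tested. Of 14 Plec probes 12 were not detected on any array.

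**Figure D2:**
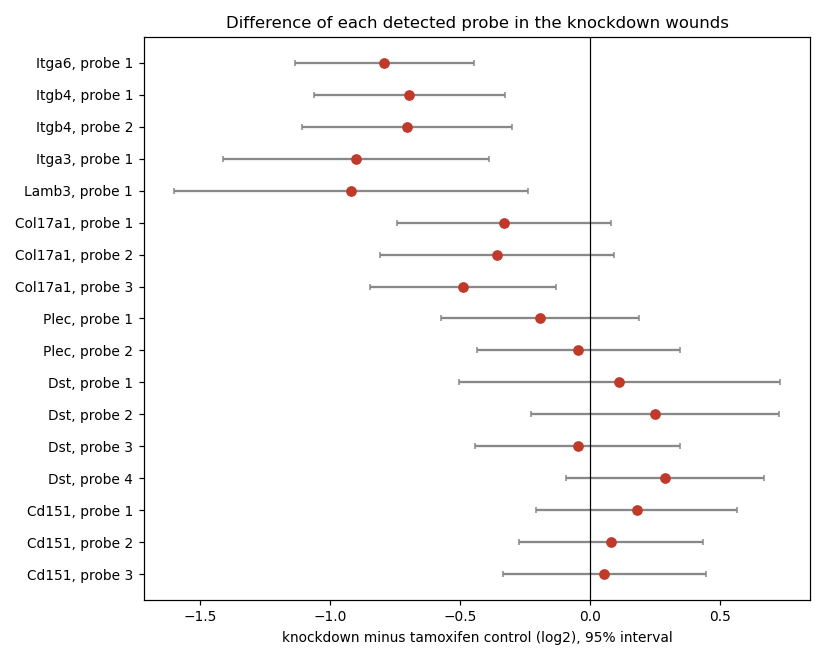
Knockdown minus tamoxifen control for each of the 17 detected probes (log2, 2 arrays each); bars are 95% intervals from limma, and probe 1 is the brightest of its gene. The intervals of Itga6, both Itgb4 probes, Itga3, Lamb3 and the dimmest Col17a1 probe lie below 0, and all others include 0.

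Counted over the 17 probes, both knockdown arrays were below both controls on 9 and above both on 3, where all probes gave 20.1% and 22.7%. Counted by the brightest probe of each of the 8 genes, these were 6 and 1. The median difference was -0.19 over the 17 probes and 0.0040 over all 17410. Over the 8 brightest probes the median was -0.51. The members were chosen with such results known, so these counts describe them and do not test the set.

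Markers of other cells moved with this comparison, and their part in it was not tested. In whole wounds, fewer keratinocytes and less RNA per keratinocyte cannot be told apart. Of 16 basal and wound keratinocyte markers 14 were detected (not Dsg3 and Epcam), none was at 0, and 12 were lower and 2 higher in the knockdown, with a median of -0.50. Their summed linear level was 156807 and 144925 in the knockdown, against 228221 and 204972 in the controls. The list was uneven, since Krt14 differed by 0.02 ± 0.14 (SE) and Krt5 by -0.39 ± 0.20, while Sfn differed by -1.16 ± 0.14, the wound keratin Krt6a by -1.66 ± 0.20, the desmosomal cadherin Dsc3 by -0.95 ± 0.15 and Krt6b by -1.65 ± 0.34. A further wound keratin, Krt17, was at -0.61 ± 0.14. Krt15, a keratin of resting basal cells and the hair bulge, was at 0.72 ± 0.34.

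All 13 skeletal muscle markers that the annotation lists were detected and higher in the knockdown, with a median of 1.31 and a summed level of 136998 and 183501 against 52993 and 82697 in the controls. None was at 0. Schwann cell markers were higher in 5 of 6 detected cases, with a median of 0.96 and a summed level of 3914 and 4696 against 3692 and 3039. Pmp22, the brightest of them on every array, weighs most in these sums and differed by only 0.02 ± 0.20 (SE). Sox10 differed by 1.60 ± 0.25 and Mbp by 1.56 ± 0.43. T cell markers were higher in 4 of 4, with a summed level of 1141 and 1186 against 642 and 551. Endothelial markers, from cells that also make Itga6, were lower in 7 of 8, with a median of -0.15 and overlapping sums of 7644 and 8939 against 8625 and 8708. Fibroblast and macrophage markers had medians of -0.08 and 0.03, and their sums overlapped between the groups (113705 and 83993 against 98533 and 108163 for fibroblasts, 6874 and 8352 against 9851 and 6836 for macrophages).

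In the stabilized wound most members stood close to the GFP control wound after normalization, and no member was at least 2-fold apart. Each group had a single array, so no spread was measured and nothing was tested. Of all probes 3.8% were at least 2-fold higher and 4.64% at least 2-fold lower. The median difference was 0.12 over the 17 probes, 12 of them higher, and 0.05 over all probes, 55.1% of them higher.

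Itgb4 read 11.44 in the stabilized wound, against 10.96 in the GFP control wound, on its brighter probe, and 10.25 against 10.02 on the dimmer one. Lamb3 read 11.28 against 11.05, a difference of 0.23. Itga6 read 7.17 against 7.22 and Itga3 8.76 against 8.71. The stabilized array was thus the higher of the pair on Itgb4 and Lamb3 and nearly level with the GFP array on both α chains. The 2 tamoxifen controls lay 0.075 and 0.064 apart on the Itgb4 probes, less than the pair, and 0.65 apart on Lamb3, more than the pair. Knockdown replicate 1 minus 2 was -0.15 and -0.26 on the Itgb4 probes and -0.37 on Lamb3. That spread was wider than the pair on the dimmer Itgb4 probe and on Lamb3, and narrower on the brighter Itgb4 probe. Col17a1 was at -0.14, -0.04 and -0.07 on its 3 probes, Plec at 0.09 and 0.02, and Cd151 at 0.36, 0.12 and 0.15.

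The intensities before normalization gave another picture of this pair. The brighter Itgb4 probe had 3261 units in the stabilized wound against 1548 in the GFP control wound, Lamb3 had 2922 against 1649, and the brightest Cd151 probe had 6278 against 3204. The log2 ratios of these intensities were 1.07, 0.83 and 0.97, where the median over all 17410 probes was 0.44. These intensities still hold the background signal, which pulls the ratios of dim probes towards 0. The distance of a bright probe from that median thus depends in part on its brightness. Only the brightest Dst probe had a ratio below 0, at -0.01. Quantile normalization removes a shift that most probes share. With arrays scaled to a common median instead, the 17 probes had a median of 0.66 and all probes one of 0.57, and 1 member, the brighter Itgb4 probe, was at least 2-fold higher, at 1.05.

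**Figure D3:**
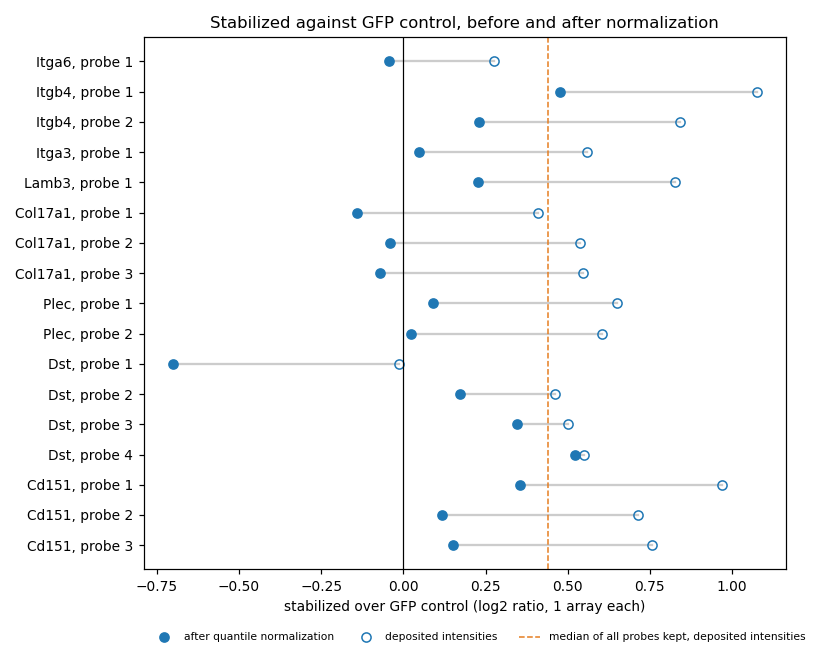
Stabilized over GFP control for each detected probe (log2 ratio, 1 array each), from the deposited intensities (open) and after quantile normalization (filled); probe 1 is the brightest of its gene. The dashed line is the median of all probes kept in the deposited intensities, 0.44. Of the 17 members 14 lie above it when open, and when filled they lie around 0, with Dst probe 1 lowest in both. The deposited intensities hold background signal, which pulls the ratios of dim probes towards 0.

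Other cells moved in this pair as well, and their part in it was not tested. Keratinocyte markers summed to 215753 in the stabilized and 214424 in the GFP control wound, with 7 of 14 higher. All 13 muscle markers were at least 2-fold lower, with sums of 18126 and 76392. Schwann cell markers summed to 6749 and 3290, endothelial markers to 12803 and 9985, fibroblast markers to 142636 and 101258, macrophage markers to 8859 and 5079, and T cell markers to 927 and 1355.

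Dst was the member whose probes disagreed. Dystonin is made as an epithelial form that belongs to hemidesmosomes and as longer forms of nerve and muscle. Its brightest probe read 9.74 and 9.62 in the knockdown wounds, against 9.25 and 9.89 in the tamoxifen controls. The knockdown arrays lay between the controls, with a difference of 0.11 ± 0.24 (SE; limma, adjusted p = 0.904). Leaving out tamoxifen control replicate 1 turned it to -0.21. The same probe read 8.58 in the stabilized wound against 9.28 in the GFP control wound, 1.63-fold lower and the lowest of the 6 arrays.

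The other 3 detected Dst probes ran the other way across the arrays. They were higher in the stabilized than in the GFP control wound by 0.17, 0.35 and 0.52, and read higher on both adenovirus arrays than on any tamoxifen control array. In the knockdown they were at 0.25, -0.05 and 0.29. Over the 6 arrays the brightest probe correlated with them at r = -0.42, -0.77 and -0.81, whereas the 3 correlated with each other at 0.67 to 0.94. All of these points share the same 6 arrays, and the 3 are dim, at 163 to 322 intensity units. Which transcripts each probe reads was not analysed here, and 8 further Dst probes were not detected.

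**Figure D4:**
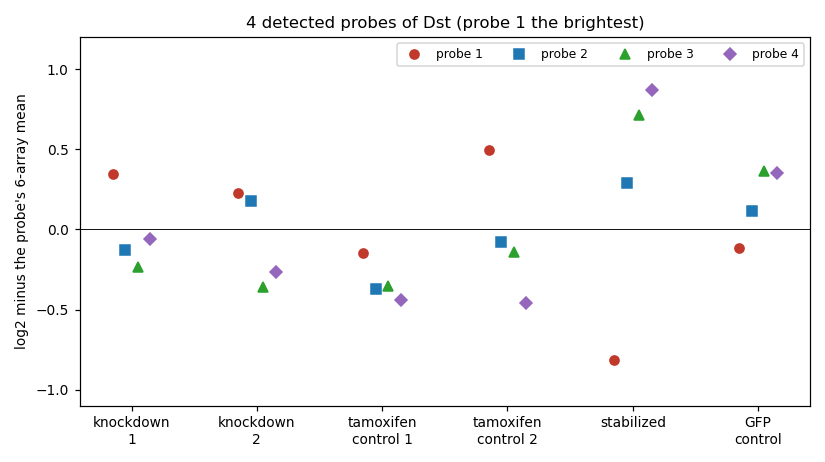
The 4 detected Dst probes on each array, as log2 intensity minus the mean of that probe over the 6 arrays. In the stabilized wound probe 1, the brightest, is lowest while probes 2 to 4 are at their highest.

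Because the Dst probes differed, the windows before both of its transcript starts in the RefSeq table are shown, with the same motifs in capitals. The first is chr1:34011345-34011594 and the second chr1:34160010-34160259, both on the plus strand of GRCm38.p6.
Dst start 1: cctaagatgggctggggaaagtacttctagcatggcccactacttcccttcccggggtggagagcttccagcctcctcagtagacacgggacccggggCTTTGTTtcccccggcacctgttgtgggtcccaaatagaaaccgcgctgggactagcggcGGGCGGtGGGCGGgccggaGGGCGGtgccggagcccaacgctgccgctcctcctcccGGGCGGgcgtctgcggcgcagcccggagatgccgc
Dst start 2: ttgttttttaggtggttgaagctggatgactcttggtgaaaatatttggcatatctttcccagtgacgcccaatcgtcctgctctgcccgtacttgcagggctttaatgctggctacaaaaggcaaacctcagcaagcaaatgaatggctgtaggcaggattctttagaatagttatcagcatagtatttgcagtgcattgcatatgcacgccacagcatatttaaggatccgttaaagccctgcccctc
The first window held the TCF/LEF form CTTTGTT 152 bases before the start and 4 GC boxes, 92, 85, 73 and 35 bases before it, with no overlap between the motifs. The second held none of the 3 motifs. Which start serves which probe was not analysed here. Windows were given for 5 members, in 9 windows, of which 0 held the AP-1 motif, 1 the TCF/LEF motif and 4 the GC box.

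A fit over all 6 arrays, in which the knockdown counted as -1, either control as 0 and the stabilized wound as 1, with a separate mean for the tamoxifen and the adenovirus model, gave positive slopes for the integrins and Lamb3. It reuses the arrays of the comparisons above and is not independent of them. The slope was 0.62 ± 0.12 (SE; limma, adjusted p = 0.203) for the brighter Itgb4 probe, 0.51 ± 0.20 (adjusted p = 0.46) for Itga6, 0.61 ± 0.23 (adjusted p = 0.459) for Itga3 and 0.69 ± 0.25 (adjusted p = 0.449) for Lamb3. For Itga6 and Itga3 the stabilized minus GFP control difference was only -0.04 and 0.05. Their slopes thus come from the knockdown comparison and show no rise in the stabilized wound. Of the 17 probes 0 passed, as did 0 of all probes (percent_called 0, smallest adjusted p = 0.156). Slopes with an unadjusted p under 0.05 were positive for 5 member probes and negative for 0, against 5.5% and 4.83% of all probes. Of the 17 slopes 12 were above 0, against 51.7% of all. Counted by brightest probe, 4 of the 8 genes had a positive slope at that unadjusted p and 6 a slope above 0. Without tamoxifen control replicate 1 only 1 member slope reached that unadjusted p, and without either knockdown array 2 did. With the stabilized or the GFP array left out the slope is that of the knockdown comparison alone.

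Ordered by level, the 4 groups stood alike for Itgb4 and Lamb3, with the knockdown lowest, then the tamoxifen controls, the GFP control and the stabilized wound. On the brighter Itgb4 probe the GFP control, at 10.96, did not stand apart from the tamoxifen controls, at 10.97 and 10.89. On the dimmer one it stood above both, at 10.02 against 9.81 and 9.75. For Itga6 and Itga3 the order also began with the knockdown and the tamoxifen controls, but the 2 adenovirus wounds nearly coincided. The stabilized array was the highest of the 6 on 12 of the 17 probes, against 25.7% of all probes, and a knockdown array was the lowest on 11, against 28.9%. Counted by the brightest probe of each gene, these were 5 and 6 of the 8 genes. On the brightest Cd151 probe the tamoxifen and GFP controls were together at 12.03 to 12.07, with the knockdown and stabilized wounds above them. The other 2 Cd151 probes did not show that order, since the GFP array stood above both tamoxifen controls on each. The tamoxifen and adenovirus groups differ in age, allele and agent, so an order across the models is a description.

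Among themselves, Itga6, Itgb4, Itga3 and Lamb3 correlated at r = 0.93 to 0.96 over the 6 arrays, each pair by its brightest probes, and Plec followed them at 0.89 to 0.97 with a smaller range. Col17a1 correlated with these 5 at 0.45 to 0.56, Cd151 at -0.22 to 0.19 and the brightest Dst probe at -0.83 to -0.61. The points are the same 6 arrays in 2 model systems, so no p-value is given. The 8 genes most like Itgb4 among 5625 probes of variable genes were Slco2a1, Gprc5a, Pde1a, Zdhhc13, Smurf1, Jup, Lgals9 and Prss27 (r = 0.98 to 0.99, Pearson, 6 arrays). The 8 most like Lamb3 among 5626 probes were Gsta1, Gpr176, Ndrg1, Mmp10, Saa3, Lrrc59, Stc1 and Prl2c4, from r = 0.9979 for Gsta1 to r = 0.9879 for Prl2c4. Of these Saa3 differed by -2.64 and Prl2c4 by -2.54 in the knockdown, and Jup, which encodes plakoglobin, by -0.58.

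Other genes of the basement membrane and its anchorage, a list of 26 of which 20 were detected, had 13 lower and 7 higher in the knockdown, where 49.4% of all probes were lower, with a median of -0.17 and 0 passing (limma, over all probes). Those at an unadjusted p under 0.05 were 4, all lower, against 4.88% of all probes. Fermt1, the kindlin of keratinocytes that activates integrins, read 8.10 and 8.16 in the knockdown, against 8.83 and 8.77 in the controls, a difference of -0.67 ± 0.14 (SE; limma, adjusted p = 0.212). Col4a1, a chain of the collagen IV network, was at -0.49 ± 0.14 (adjusted p = 0.336), and Bmp1, a protease that matures laminin-332 and procollagens, at -0.56 ± 0.19 (adjusted p = 0.402). For Ntn4, a netrin that binds laminin, the 2 probes disagreed. The brighter one was not detected on either knockdown array and was at least 1.39-fold lower there (limma, adjusted p = 0.243). The other was detected on knockdown replicate 2 and differed by -0.22 ± 0.31 (SE), with overlapping groups.

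Col7a1, the anchoring fibril collagen below the hemidesmosome, was at 0.10 ± 0.29 with overlapping groups, and the laminin chains Lama5, Lamb2 and Lamc1 were at 0.14, 0.20 and -0.08. The dimmer Lamc1 probe was at -0.29 ± 0.14 (SE), with both knockdown arrays below both controls. In the stabilized wound 16 of the 20 were higher than in the GFP control wound, with a median of 0.40. The hemidesmosome and laminin-332 genes had 5 of 8 and 0.07, and all probes 55.1% and 0.05. The nidogen Nid1 was higher by 1.02 on its brightest probe and lower, at -0.35, on the other, Col4a2 was higher by 0.61 and perlecan, Hspg2, by 0.53. Ntn4, which neither probe detected on the GFP array, was at least 2.01-fold higher on the brighter probe. Fibroblast markers were higher in 6 of 8 cases in this pair.

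**Figure D5:**
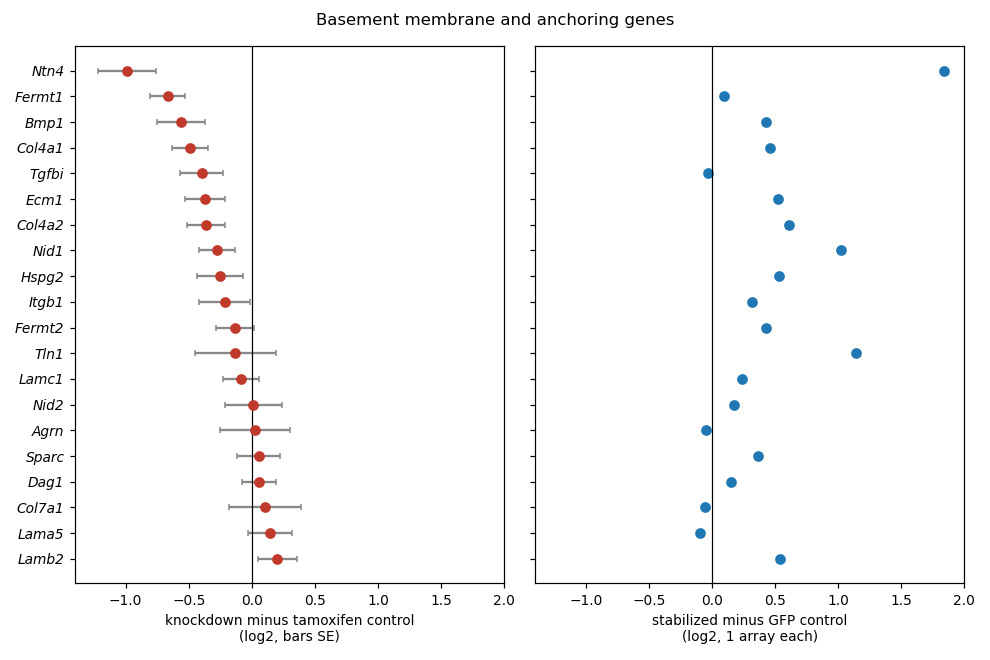
The 20 detected genes of the basement membrane and anchoring list, each by its brightest probe, ordered by the knockdown difference. Left, knockdown minus tamoxifen control (log2, bars SE, 2 arrays each); right, stabilized minus GFP control (log2, 1 array each). In the knockdown 13 lie below 0, where 49.4% of all probes did. In the stabilized wound 16 lie above 0, where 55.1% of all probes did. Ntn4 lies farthest on both sides, by a probe not detected on the knockdown and GFP arrays.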

How the data were processed

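Average bead signals of 45281 probes on 6 Illumina arrays were deposited by the authors as intensity on a linear scale, not normalized between arrays, with a detection p-value per probe and array, per the file headers. The authors also deposited a table of log2 values (column medians 5.12, Spearman correlation 1 with the intensities of the same array, at most 0.101 from the values computed here). The submitters' processing notes name R 2.14 and limma without settings, so the background step and offset of that table stay unknown. No slide or scan day was given, so no batch could be tested. No sample column was left out.

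Background was corrected with the detection p-values (neqc, limma 3.58.1, R 4.3.3), and the 6 arrays were quantile-normalized after adding an offset of 16, on a log2 scale. The offset shrinks differences of dim probes. Probes with a detection p-value under 0.01 on at least 2 arrays were kept (17410). Of the 45281 probes, 34885 had 1 gene in the platform annotation, 18 had several and 10378 are unnamed here. Their Entrez numbers gave current symbols from the RefSeq gene table of GRCm38.p6 (34807 matched). The knockdown was tested with lmFit and eBayes over 4 group means (2 residual degrees of freedom, 3.22 from the prior), in a two-sided test, and p-values were adjusted by Benjamini-Hochberg across the probes kept. A call is an adjusted p under 0.05. The trend was fitted in the same way, and the adenovirus arrays were compared without a test. The number of arrays limits the precision. The steps were tested on simulated data.

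A gene is represented by its detected probe with the highest mean. A bound ("at least") takes, for every undetected array, the probe's value or that array's lowest detected value, whichever is higher, as the dim level. Named genes were all members, Ctnnb1, the anchoring genes at an unadjusted p under 0.05 and others of that list, up to 4 genes of each marker list, and the 8 most like Itgb4 and Lamb3 (SD over the arrays at least 0.3). Krt14, Krt5, Krt15, Krt17 and Pmp22, the medians with fewer probes and the anchoring genes above that p were chosen after their values were seen. Members and lists were chosen with earlier results of these data known. Motifs were searched with Python 3.11.15.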

Additional observations from a re-analysis of the deposited data

How the results depend on the processing

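No member probe passed in the knockdown or in the trend under any alternative run, so no call could be lost. With background or offset changed, the authors' deposited log2 values, the tamoxifen arrays normalized alone or another prior, 6 or 7 member probes had an unadjusted p under 0.05 in the knockdown, all lower. Leaving out each array of the tamoxifen groups gave 0 calls, 4 to 6 such probes and medians of -0.29 to -0.11 in the knockdown, and 0 calls in the trend, also without either adenovirus array. The median of the knockdown was -0.023 over all 39 probes without the filter, since 22 more probes near background entered, and -0.51 with 1 probe per gene. Median scaling gave 1 member at least 2-fold apart in the stabilized wound and a median of 0.66, with all probes at 0.57. In the knockdown it gave a median of -0.11 in place of -0.19. It turned the second Plec probe to 0.030 and the third Dst probe to 0.0035 there. Without single arrays the second Plec probe ranged from -0.15 to 0.064, the third Dst probe from -0.15 to 0.058, the brightest Dst probe from -0.21 to 0.43 and the dimmest Cd151 probe from -0.063 to 0.17, and so changed sign. These 4 probes had intervals that include 0. Itga6, Itgb4, Itga3, Lamb3 and Col17a1 were below 0 under every alternative run. The replicate differences of both groups correlated at r = 0.09 across probes. With 2 pairs this cannot settle whether the replicate numbers of the titles mark a pairing. With the replicate number as a block there were 6 member probes at an unadjusted p under 0.05 and 0 calls, the median of -0.19 was the same, and over all probes 2295 in place of 1854 had an unadjusted p under 0.05. That count was 3534 without the filter, 1093 with 1 probe per gene and 1036 without knockdown replicate 2, and 2 probes on the array, neither a member, passed without tamoxifen control replicate 1. Signal over background limits Itga6 and the dimmer Dst probes.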
